A study of Mus musculus with 2 samples.

Results

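The genes described here are 10 parts of the cellular oxygen sensor: the hypoxia-inducible factor (HIF) subunits Hif1a, Epas1 and Arnt, the prolyl hydroxylases Egln1, Egln2 and Egln3, the ubiquitin ligase subunit Vhl, the asparaginyl hydroxylase Hif1an, and the HIF-responsive genes Cited2 and Ndrg1. They were chosen by gene symbol, taking every probe set of the array whose annotation named exactly 1 gene. This gave 28 probe sets for the 10 genes, out of 34945 probe sets that named 1 gene and 18193 genes in all. Messenger RNA was measured in ovaries of wild type CD-1 mice aged 24 to 28 days, in 1 sample from mice given ulipristal acetate (also labelled CDB) and 1 from mice given oil vehicle, each on an Affymetrix Mouse Genome 430 2.0 array. Ulipristal acetate binds the progesterone receptor as a selective modulator and serves as emergency contraception. All mice had received 5 IU of pregnant mare serum gonadotropin, which grows preovulatory follicles, and 48 h later 5 IU of human chorionic gonadotropin (hCG), which starts ovulation. The drug or vehicle was given 2 h after hCG and ovaries were collected at 11 h, without a statement of the injection from which those hours were counted. The mice were immature and hormone-primed in both groups, and the labels give no number of animals per sample.

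HIF is a pair of proteins, an oxygen-labile alpha subunit (from Hif1a or Epas1) and a stable partner (from Arnt), that switches on genes for glucose use, vessel growth and oxygen supply. When oxygen is present, the Egln enzymes hydroxylate prolines of the alpha subunit, the Vhl protein then marks it for destruction, and Hif1an blocks its contact with coactivators. Much of this control acts on the protein, which arrays do not measure. The preovulatory follicle has no vessels inside its granulosa layer, and in mouse granulosa cells the HIF subunit genes have been described as depending on the progesterone receptor.

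Values are MAS5 signals in arbitrary units, scaled so that both arrays had the same trimmed mean. Signals below 7.17 were raised to that floor, a ratio is log2 of the ulipristal signal minus log2 of the vehicle signal, and a gene was represented by its brightest probe set. A probe set passed the filter on low signal where its mean log2 signal was at or above the median of the array, a signal of 30.8. With 1 array per group there was no spread between animals, so no test, standard deviation or p-value could be given, and each difference is between these 2 samples. A difference of at least 2-fold was used as a fixed mark of size. Signals of different probe sets were not compared, since each has its own brightness.

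The Hif1a, Epas1, Egln3 and Ndrg1 messages were lower on the ulipristal array on every probe set. Those of Arnt, Egln1, Egln2 and Vhl had log2 ratios above 0 on every probe set, some of them close to level. Of all genes passing the filter, 60.0% were at or above 0. Arnt probe set 1419996_s_at, at 0.01, and Egln1 probe set 1451110_at, at 0.16, lay below the medians of genes of like signal, 0.13 and 0.20. The brightest probe sets of Arnt, Egln1, Egln2 and Vhl lay above such medians. Ndrg1 and Egln3 were at least 2-fold lower, and 0 of the 10 genes were higher by that much. All 10 genes had at least 1 probe set that passed the filter. The 2 genes made up 20% of the 10, against 1.56% of all 11364 genes passing the filter that were at least 2-fold lower. The 10 genes were chosen with earlier results of these data known, so this contrast is a description and not independent evidence. At least 2-fold higher were 3.34% of all genes. By probe set, 5 of the 19 that passed were at least 2-fold lower, against 2.02% of 19467 probe sets of 1 gene, and 0 were at least 2-fold higher, against 3.2%. These 5 belonged to Ndrg1, Egln3, Hif1a and Epas1, and probe sets of the same gene are not separate genes. The Hif1a one, 1448183_a_at, had an ulipristal signal below the filter signal of 30.8 and passed through its vehicle signal. The 5 became 1 with 50 added to every signal, and 1 of 12 with the signal filter at the 75th percentile. At the smaller mark of 1.5-fold, 3 genes were lower (4.58% of all genes), Hif1a being added, and 2 were higher, Arnt and Vhl (12.3% of all genes). Of the 19 probe sets, 9 were lower (6.37% of all) and 2 higher (12.4% of all) by this mark. The median log2 ratio was -0.19 for the 10 genes and 0.09 for all genes. The other 9 probe sets were too dim to pass, and their signals are given with each gene.

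**Figure D1:**
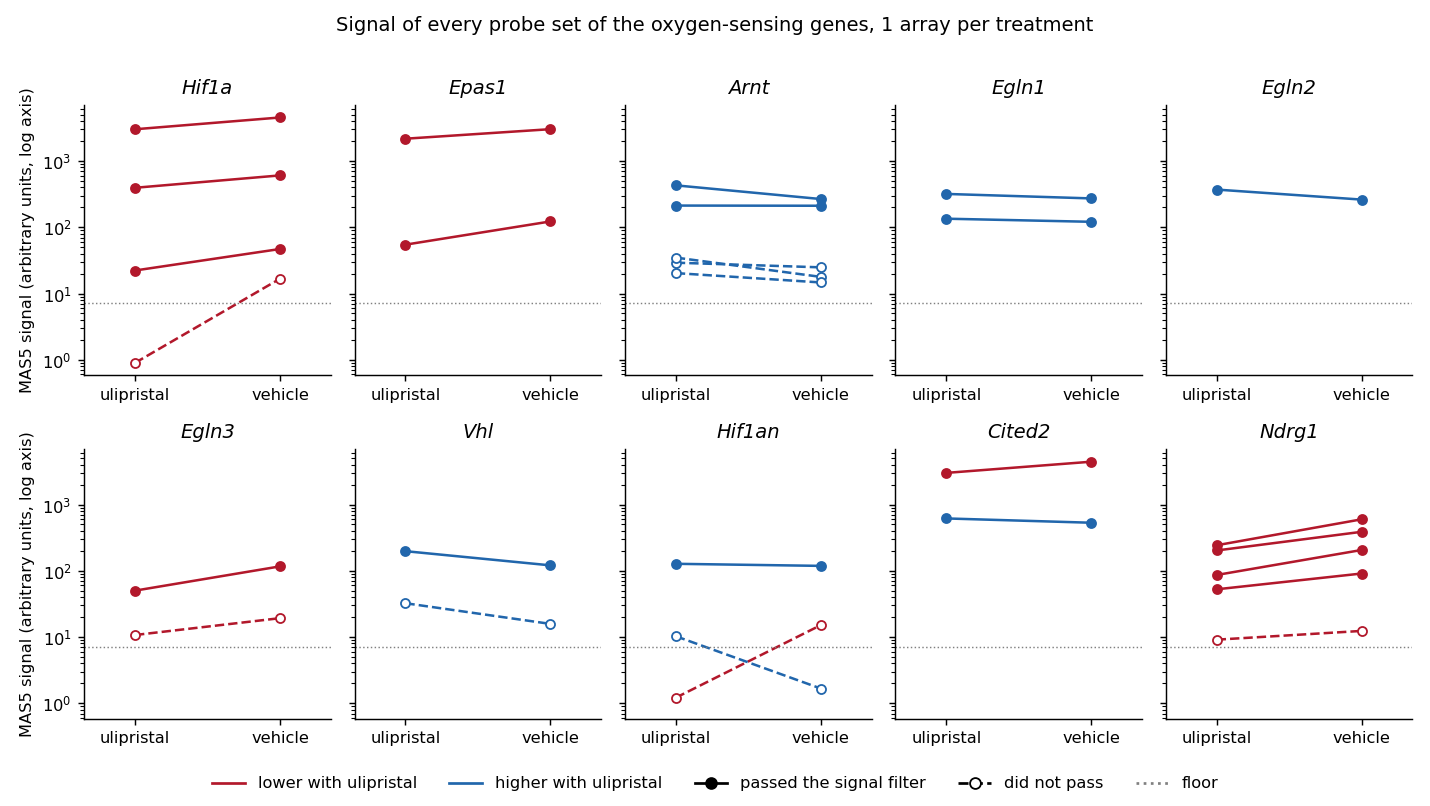
MAS5 signal (vertical log axis, arbitrary units) of all 28 probe sets on the ulipristal array and the vehicle array, 1 panel per gene and 1 line per probe set. Red lines are lower and blue lines higher with ulipristal, filled points passed the signal filter, and the dotted line is the floor of 7.17. All lines of Hif1a, Epas1, Egln3 and Ndrg1 are red, and all of Arnt, Egln1, Egln2 and Vhl are blue.

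The brightest probe set of the alpha subunit Hif1a, 1427418_a_at, had a signal of 3019 after ulipristal and 4546 after vehicle, 1.51-fold lower. Its second probe set, 1416035_at, read 395 after ulipristal and 607 after vehicle, a log2 ratio of -0.62. The third, 1448183_a_at, was dim at 22.3 after ulipristal and 47.0 after vehicle, 2.11-fold lower. Its ulipristal signal was below the filter signal of 30.8, so it passed through its vehicle signal. The 3 probe sets that passed thus lay on the same side, and the size of the difference was smallest on the brightest. The dimmest, 1431981_at, did not pass, with 0.90 after ulipristal, below the floor, and 16.8 after vehicle, at least 2.34-fold lower. Of all genes passing the filter, 4.47% had a ratio as low as the brightest Hif1a probe set or lower. Within the brightest decile of genes, where the median log2 ratio was -0.12, this share was 5.45%.

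Epas1, which encodes the alpha subunit HIF-2α and is known for high levels in endothelium, gave the same direction. Its bright probe set, 1435436_at, read 2174 after ulipristal and 3029 after vehicle, 1.39-fold lower. Its dim probe set, 1449888_at, read 54.7 after ulipristal and 122.6 after vehicle, 2.24-fold lower. For the brighter one 6.55% of all genes had a ratio as low or lower, and 8.88% of genes in its own decile of signal. Endothelial markers are given beside it. Of the 10 endothelial genes listed, all passed the filter, 2 were higher by 2-fold or more (Tie1, a receptor of vessel lining, with 76.8 after ulipristal and 24.8 after vehicle, and the adhesion molecule Pecam1, with 171 after ulipristal and 85.2 after vehicle) and 0 were lower by as much, against 3.34% of all genes higher and 1.56% lower. The vehicle signal of Tie1 was below the filter signal of 30.8, so it passed through its ulipristal signal. After 50 was added to all signals, log2 ratios were 0.76 for Tie1 and 0.71 for Pecam1, short of 2-fold. Cdh5, the cadherin of vessel lining, and Robo4, a receptor of endothelium, both named after their values were seen, were on the lower side with log2 ratios of -0.24 and -0.17. The list's median was 0.12, against 0.09 for all genes, and its summed signal was 2687 after ulipristal and 2306 after vehicle. The part of endothelial content in the Epas1 ratio was not tested. In whole ovaries, fewer cells of a type and less RNA per cell cannot be told apart.

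Arnt, the stable partner of both alpha subunits, was on the other side. Its brightest probe set, 1437042_at, read 430 after ulipristal and 267 after vehicle, 1.61-fold higher. For this probe set 8.95% of all genes had a ratio as high or higher, and 3.43% of genes in its own decile of signal. The second one that passed, 1419996_s_at, was level, with 213 after ulipristal and 211 after vehicle. These probe sets of the same gene therefore differed in size, from a log2 ratio of 0.69 to one of 0.01. The 3 that did not pass were 1421721_a_at (29.2 after ulipristal, 24.9 after vehicle), 1425064_at (34.9 after ulipristal, 17.8 after vehicle) and 1449696_at (20.3 after ulipristal, 14.7 after vehicle). All were higher after ulipristal, by log2 ratios from 0.23 to 0.97.

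Among the prolyl hydroxylases only Egln3 was lower. Egln3, which is itself switched on by HIF in many cell types, read 50.1 after ulipristal and 116 after vehicle on probe set 1418649_at, 2.32-fold lower. Of all genes, 1.03% had a ratio as low or lower, and 0.97% of genes in its own decile of signal. Its dimmer probe set, 1418648_at, did not pass and read 10.7 after ulipristal and 19.2 after vehicle, in the same direction. Egln3 rested on low signals, and with 50 added to every signal its log2 ratio was -0.73, short of 2-fold.

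Egln1, regarded as the main oxygen sensor in most tissues, differed little. Its probe set 1423785_at read 319 after ulipristal and 273 after vehicle, and 1451110_at read 135 after ulipristal and 121 after vehicle. These are log2 ratios of 0.22 and 0.16, where genes in the same decile of signal had medians of 0.11 and 0.20. Egln2, the third enzyme of the family, had a single probe set, 1416533_at, with 371 after ulipristal and 262 after vehicle, 1.42-fold higher. Of all genes 16.1% were as high or higher, and 8.36% of genes in its own decile of signal.

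Vhl, which recognizes the hydroxylated alpha subunit, read 198 after ulipristal and 121 after vehicle on probe set 1434708_at, 1.64-fold higher. Its dim probe set, 1421071_at, did not pass and read 32.4 after ulipristal and 15.8 after vehicle. Genes of this brightness tended to be higher on the ulipristal array, with a median log2 ratio of 0.20, and 9.67% of them were as high as Vhl or higher. Hif1an read 127 after ulipristal and 118 after vehicle on 1428576_at, a log2 ratio of 0.10. Its other probe sets were near or below the floor and pointed opposite ways. Probe set 1447817_at read 1.21 after ulipristal and 15.1 after vehicle, and 1452845_at read 10.3 after ulipristal and 1.67 after vehicle, so each had a signal below the floor on 1 array.

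Cited2, which competes with the alpha subunit for the coactivators Ep300 and Crebbp, gave probe sets that disagreed. The brighter, 1452207_at, read 3001 after ulipristal and 4427 after vehicle, 1.48-fold lower. The dimmer, 1421267_a_at, read 616 after ulipristal and 531 after vehicle, 1.16-fold higher. Of the 6 genes with 2 or more probe sets passing the filter, 5 had all of them on the same side, and Cited2 was the exception.

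Ndrg1, a stress-responsive gene that HIF induces, was the lowest of the 10. Its brightest probe set, 1456174_x_at, read 243 after ulipristal and 598 after vehicle, 2.47-fold lower. Next in signal came 1420760_s_at, with 202 after ulipristal and 387 after vehicle, and 1450976_at, with 86.3 after ulipristal and 206 after vehicle. The fourth, 1423413_at, read 52.5 after ulipristal and 90.9 after vehicle. Its 4 probe sets that passed thus had log2 ratios of -1.30, -0.94, -1.25 and -0.79, all lower. The fifth, 1450977_s_at, was near the floor with 9.11 after ulipristal and 12.4 after vehicle. Of all genes 0.83% had a ratio as low as the brightest or lower, and 0.53% in its own decile of signal. Probe sets marked s or x can bind several transcripts, and without them Ndrg1 was read from 1450976_at, 2.38-fold lower.

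**Figure D2:**
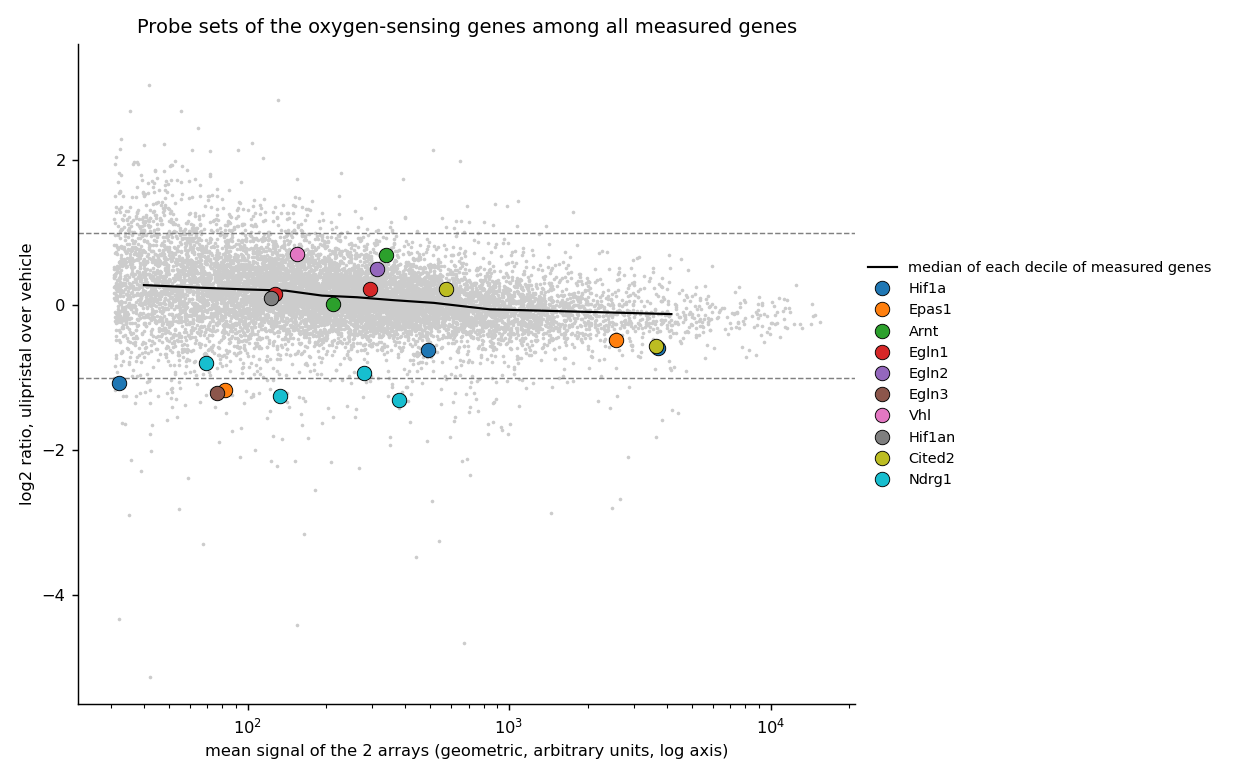
Log2 ratio of ulipristal over vehicle (vertical axis) against the geometric mean signal of both arrays (horizontal log axis, arbitrary units). Grey points are the 11364 genes passing the filter, coloured points the 19 probe sets of the 10 genes that passed, the black line the median of each decile of genes by signal, and dashed lines mark 2-fold. The 5 probe sets past 2-fold all lie below 0 and the line slopes from 0.28 in the dimmest decile to -0.12 in the brightest. A Hif1a and a Cited2 point at the right overlap.

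The slope of that median with signal touches these genes, since the bright Hif1a, Epas1 and Cited2 probe sets lie where the median was below 0 and the Arnt, Egln2 and Vhl ones where it was above. After lowess centring, which removes it, the log2 ratios were -0.46 for Hif1a, -0.37 for Epas1 and -0.43 for Cited2, and 0.63 for Arnt, 0.44 for Egln2 and 0.59 for Vhl. Control features also differed between the arrays. The 24 poly-A spike probe sets, which are bacterial control transcripts, had a median log2 ratio of -0.58, the 14 hybridization controls one of -0.27, and the 3 probe sets of 18S ribosomal RNA one of -1.27. The 3 beta-actin probe sets had a median log2 ratio of 0.05, and the 3 of Gapdh one of 0.46. By probe set the spikes ran from -0.83 to 0.20. The Hif1a ratio of -0.59 lay near their median and away from the medians of beta-actin and Gapdh. The ratio of the 3′ to the 5′ probe set of beta-actin was 1.87 after ulipristal and 2.40 after vehicle. The part of these controls in the Hif1a, Epas1 and Cited2 ratios was not tested.

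**Figure D3:**
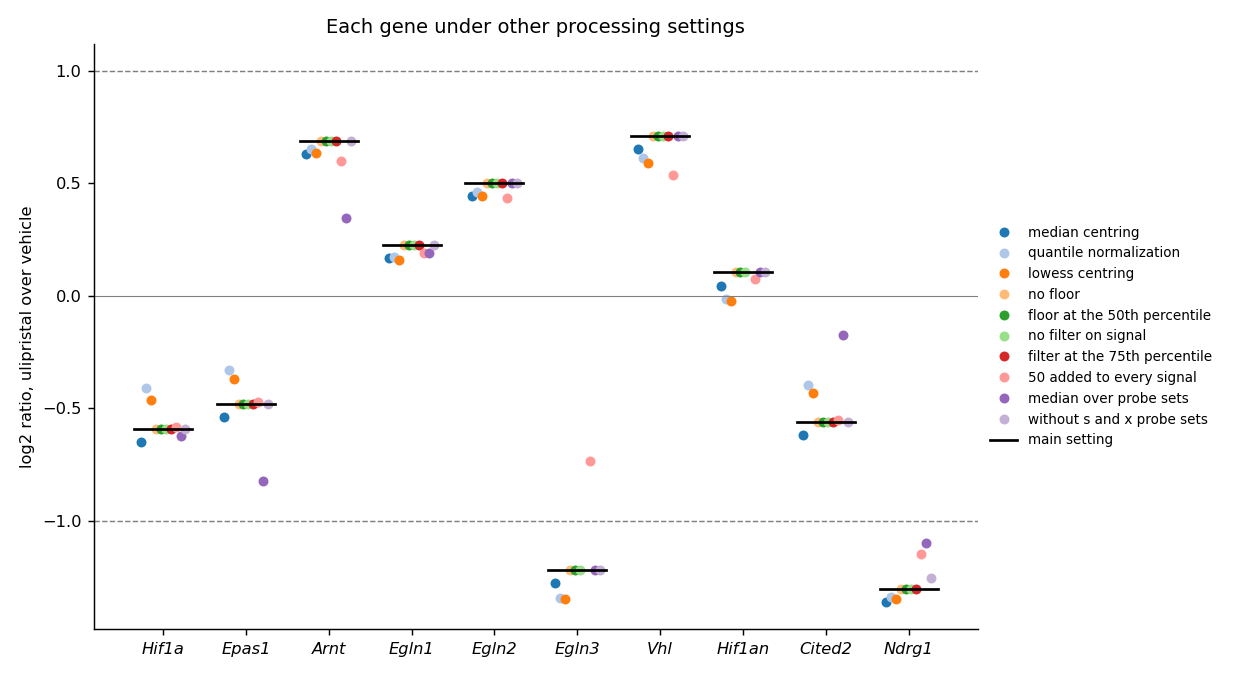
Log2 ratio of ulipristal over vehicle (vertical axis) of each of the 10 genes, with a black bar for the main setting and 1 coloured point for each of 10 other processing settings under which the gene passed the filter. Dashed lines mark 2-fold. Egln3 and Ndrg1 lie below the lower line in the main setting, and Egln3 is above it at -0.73 with 50 added to every signal. Hif1an crosses 0.

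The stretch before the gene start was taken for 8 of the 10 genes from RefSeq (GRCm38.p6), and those of Epas1 and Ndrg1 were not used here. The windows of Hif1a and Egln3, lower on every probe set, and of Arnt are shown. Arnt was above 0 on every probe set, but level on 1419996_s_at. The windows are given because HIF binds short motifs, ACGTG or GCGTG, and several genes of the pathway, Egln3 among them, are known HIF targets. Each window holds the 250 bases before a RefSeq start, 5′ to 3′ on the strand of the gene, and capitals mark ACGTG or GCGTG on either strand.
Hif1a, chr12:73907617-73907866, plus strand: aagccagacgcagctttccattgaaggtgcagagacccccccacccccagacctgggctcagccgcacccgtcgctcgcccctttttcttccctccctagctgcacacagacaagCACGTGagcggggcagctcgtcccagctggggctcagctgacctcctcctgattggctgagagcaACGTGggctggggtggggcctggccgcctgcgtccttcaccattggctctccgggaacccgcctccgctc
Egln3, chr12:54203875-54204124, minus strand: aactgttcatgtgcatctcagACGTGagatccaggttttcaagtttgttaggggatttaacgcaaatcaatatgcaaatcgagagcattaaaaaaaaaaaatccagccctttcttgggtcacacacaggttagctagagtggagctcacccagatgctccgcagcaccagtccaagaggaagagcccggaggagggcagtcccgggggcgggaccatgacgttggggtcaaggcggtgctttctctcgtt
Arnt, chr3:95434140-95434389, plus strand: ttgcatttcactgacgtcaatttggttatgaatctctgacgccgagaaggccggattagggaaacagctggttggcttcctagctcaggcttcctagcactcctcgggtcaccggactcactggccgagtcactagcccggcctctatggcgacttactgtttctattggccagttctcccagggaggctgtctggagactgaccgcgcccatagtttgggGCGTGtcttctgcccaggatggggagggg

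Hif1a held ACGTG on its own strand with first bases 134 and 70 bases before the start, and on the opposite strand within the palindrome CACGTG, whose matches overlap. Egln3 held it 229 bases before the start, and Arnt held GCGTG 29 bases before it. Either motif stood in the windows of 6 of the 8 genes and was not found in those of Vhl and Hif1an. Over all 32851 RefSeq windows of this length, 38.6% held at least 1 of these motifs, counted on both strands, 16.6% ACGTG and 28.2% GCGTG. The progesterone and glucocorticoid receptor half-site TGTTCT was found in 0 of the 8 genes' windows, against 16.1% of all windows. GGGCGG, the core bound by Sp1-family factors, was found in those of 5 genes, against 32.7% of all windows. The 8 genes had 9 windows, so their counts are by gene and the shares of all are by window. G and C made up from 48% (a window of Egln2) to 86% (Egln1) of these windows, against a median of 52.4% over all windows. Shares among windows of like G and C content were not computed. These are matches of letters and not measured binding sites. The genes below 0 and those above 0 both included windows with ACGTG or GCGTG.

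The rest of the pathway was read from lists of genes. Of 51 genes listed as HIF targets, 46 had a probe set of 1 gene and 42 passed the filter. Past 2-fold were 1 lower and 1 higher gene, against 1.56% of all genes lower and 3.34% higher, and the other 40 differed less. At 1.5-fold, 4 of the 42 were lower, against 4.58% of all genes, and 3 were higher, against 12.3%. The median log2 ratio was -0.01, against 0.09 for all genes, and 21 genes were below 0 and 21 above. The lower gene was Slc2a1, a glucose transporter, with 403 after ulipristal and 817 after vehicle. Pfkl, a glycolytic enzyme, was the higher one, with 232 after ulipristal and 96.3 after vehicle. Next to it were the glycolytic enzymes Pkm, with 1073 after ulipristal and 541 after vehicle, and Aldoc, with 369 after ulipristal and 197 after vehicle. Other genes of glycolysis, named after their values were seen, were on both sides. On their brightest probe sets Pfkp, Hk1, Pgam1 and Aldoa had log2 ratios of 0.29, 0.25, 0.21 and 0.13. Tpi1 was level at -0.03, and Pgk1, Ldha and Hk2 were lower. Pgk1 had 2213 after ulipristal and 3182 after vehicle, with its 3 probe sets from -1.49 to -0.50, and Ldha and Hk2 had log2 ratios of -0.36 and -0.30. By probe set, Pfkl had log2 ratios of 0.46 and 1.27, whereas Slc2a1 lay between -1.02 and -0.33. The main vascular growth factor Vegfa, named here after its values were seen, read 415 after ulipristal and 389 after vehicle. Its 2 measured probe sets had log2 ratios of 0.09 and 0.45.

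Genes of HIF degradation and stability had 12 of 15 members measured, with a median of -0.07, 0 genes lower by 2-fold and 1 higher by as much. The higher one was Fkbp8, which binds the Egln1 protein, with 292 after ulipristal and 129 after vehicle, 2.26-fold higher on a single probe set, against 3.34% of all genes that were 2-fold higher. With 50 added to every signal its log2 ratio was 0.93, short of 2-fold. Siah2, a ubiquitin ligase that acts on Egln enzymes, was the lowest, with 90.7 after ulipristal and 134 after vehicle on its brighter probe set, a log2 ratio of -0.56. The other measured probe set of Siah2 was level, with a log2 ratio of -0.0080. P4htm, a membrane-bound prolyl hydroxylase, was 1.58-fold higher, and Rwdd3, a sumoylation factor, 1.45-fold higher. The subunits Elob and Eloc, which hold Vhl in its ligase complex, were level on their brightest probe sets. Elob had 2017 after ulipristal and 1986 after vehicle, Eloc had 1769 after ulipristal and 1775 after vehicle, and both were named after their values were seen. By probe set, Elob had log2 ratios of 0.02 and -0.26, and Eloc ran from -0.16 to 0.19.

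All 10 HIF coactivators and competitors were measured, 0 past 2-fold in either direction, with a median of 0.09. Cited4, a relative of Cited2 that also binds Ep300, read 266 after ulipristal and 139 after vehicle, 1.92-fold higher. Cdk8, a kinase of the Mediator complex, was 1.44-fold lower, and Kat5 and Ncoa1, an acetyltransferase and a nuclear receptor coactivator, had log2 ratios of 0.34 and 0.28. The dimmer measured probe set of Kat5 was on the other side, at -0.14. Of the 7 relatives of HIF and the aryl hydrocarbon receptor, 3 passed the filter and none differed by 2-fold. Hif3a, a further alpha subunit gene, read 67.8 after ulipristal and 66.1 after vehicle. Arnt2, a relative of Arnt, read 249 after ulipristal and 229 after vehicle, and the aryl hydrocarbon receptor Ahr read 357 after ulipristal and 344 after vehicle. The relatives of Ndrg1 were on different sides. Ndrg2 had 702 after ulipristal and 404 after vehicle, Ndrg3 had 295 after ulipristal and 233 after vehicle, and Ndrg4 had 251 after ulipristal and 324 after vehicle. By probe set, Ndrg3 had log2 ratios of 0.34 and 1.14, and Ndrg4 had -0.37 and -0.78.

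**Figure D4:**
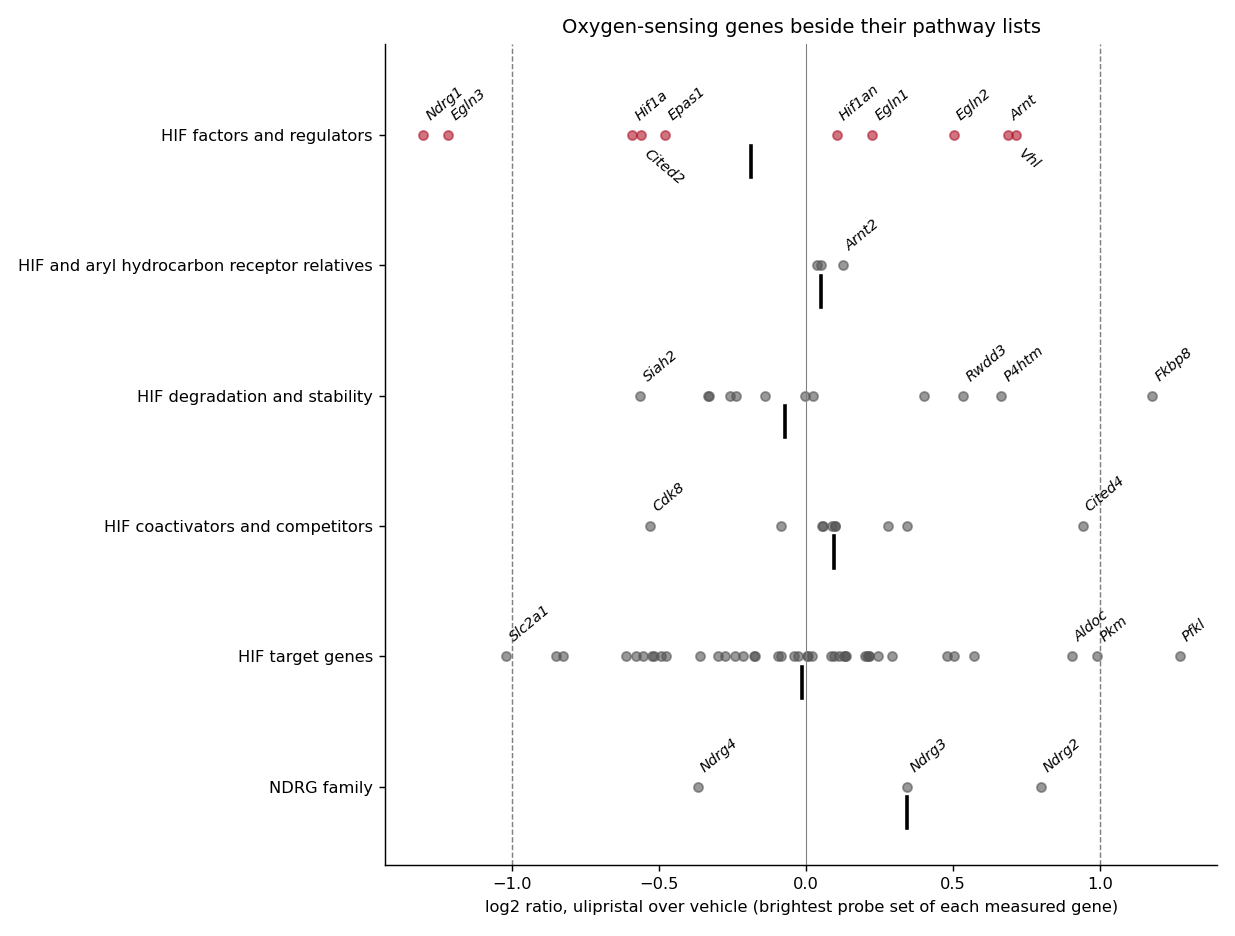
Log2 ratio of ulipristal over vehicle (horizontal axis) of each measured gene, by its brightest probe set, in the 10 oxygen-sensing genes (red, top) and the pathway lists (grey). Short black bars are medians, -0.19 for the 10 genes and -0.01 for the HIF targets, and dashed lines mark 2-fold. Ndrg1, Egln3 and Slc2a1 lie left of the lower line, and Pfkl and Fkbp8 right of the upper one.

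The tissue label was checked against ovarian markers. Granulosa genes were present in both samples, 5 of 7 measured, with signals from 30.1 to 8212 after ulipristal and from 48.7 to 6933 after vehicle and a median log2 ratio of 0.24. All 8 oocyte genes passed the filter, with a median of 0.14. Fshr, the follicle-stimulating hormone receptor, had 116 after ulipristal and 51.1 after vehicle, and a log2 ratio of 0.71 with 50 added to every signal. Foxl2, a granulosa transcription factor, had 1597 after ulipristal and 940 after vehicle. Amh, the anti-Müllerian hormone, and the nuclear receptor Nr5a2 were named after their values were seen. Amh was lower, with 30.1 after ulipristal and 48.7 after vehicle, and Nr5a2 was level at 3253 after ulipristal and 3130 after vehicle. Theca and interstitial genes, 4 of 5 measured, were all above 0, against 60.0% of all genes at or above 0. Their median was 0.94, led by Fabp3 (274 after ulipristal and 110 after vehicle) and Tcf21 (1193 after ulipristal and 538 after vehicle). Of 6 oviduct genes, 5 were higher after ulipristal by at least 2-fold, against 3.34% of all genes. In signal deciles 1, 2 and 3, counted from the dimmest, where these 5 lay, the shares were 14.2%, 7.04% and 4.67%. Foxj1, the regulator of motile cilia, had 75.1 after ulipristal and 19.1 after vehicle, and Ccdc39 had 72.9 after ulipristal and 27.4 after vehicle. Both vehicle signals were below the filter signal of 30.8, so Foxj1 and Ccdc39 passed through their ulipristal signals. After 50 was added to all signals, those 5 had log2 ratios from 0.57 (Wfdc2) to 0.91 (Tmem212), short of 2-fold. The summed signal of the oviduct list was 6122 after ulipristal and 3825 after vehicle. Most of it came from Ovgp1, with 5642 after ulipristal and 3641 after vehicle. Ovgp1, Wfdc2 and Tmem212 were named after their values were seen. Surface epithelium genes, 6 of 6 measured, had a median of 0.76, led by Epcam at 268 after ulipristal and 107 after vehicle, and both measured adipose genes of 5 listed were above 0, with a median of 1.08. All 8 macrophage genes were measured, with a median of 0.18, and 2 of 5 red cell genes, with a median of 0.07. None of the listed marker genes with a probe set read 0 on either array. The part of these differences in tissue content in the ratios of the 10 genes was not tested.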

How the data were processed

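Whole ovaries of mice given ulipristal acetate (1 array) or oil vehicle (1 array) were profiled on Affymetrix Mouse Genome 430 2.0 arrays, and samples were grouped by the treatment label. The deposited values are MAS5 signal intensities per probe set on a linear scale. MAS5 and version 1 of Affymetrix Expression Console are named in the submitters' processing notes, with no settings. Trimming 2% of values at each end gave a mean of 150.001 on both arrays, so a change common to most genes is hidden by the scaling. The number of arrays limits the precision.

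GEO's platform annotation names 1 gene for 34945 of the 45101 probe sets, several for 932 and none for 9160, beside 64 controls. All 10 genes matched RefSeq (GRCm38.p6) by gene identifier under the same symbol. Signals were floored at the 25th percentile of non-control values, log2 was taken, and the probe set of highest mean log2 signal stood for its gene. Probe sets at or above the 50th percentile of mean log2 signal passed. The genes and pathway lists were chosen with earlier results of these data known. Text names all 10 genes, each pathway gene past 2-fold or among the 4 with the largest ratios of its list, and 2 or fewer genes per marker list. Other genes are said to be named after their values were seen. The main steps (floor, log2 ratio, signal filter and choice of probe set) were tested on 1 simulated pair of arrays with known changes. Those changes were larger than that of any of the 10 genes, and the simulated noise was alike at every signal. The simulation therefore cannot show how differences near 2-fold or dim signals fare. The other settings, the list summaries, the controls and the motif search were not tested in this way. Other settings tried were lowess centring (fraction 0.3), quantile normalization, median centring, a floor at the 50th percentile or none, a signal filter at the 75th percentile or none, 50 added to every signal in place of the floor, no s or x probe sets, a gene's median probe set, and marks of 1.5-fold and 3-fold. The software was Python 3.11.15 with matplotlib 3.10.9, statsmodels 0.14.6, pandas 2.3.3 and numpy 2.4.6.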

Additional observations from a re-analysis of the deposited data

How the results depend on the processing

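No paired analysis was possible because each group has 1 sample. Dropping the floor, raising it, and dropping or raising the signal filter left the log2 ratio of each of the 10 genes as it was, except that Egln3 and Hif1an did not pass the filter at the 75th percentile. Under centring, quantile normalization, an added 50, the median over probe sets and no s or x probe sets, all genes but Hif1an kept their direction. Hif1an had a log2 ratio of -0.01 after quantile normalization and -0.02 after lowess centring. The log2 ratio ran from -1.36 to -1.10 for Ndrg1, -1.35 to -0.73 for Egln3, -0.65 to -0.41 for Hif1a, -0.82 to -0.33 for Epas1, -0.62 to -0.17 for Cited2 and 0.35 to 0.69 for Arnt. Of the 10 genes, 2 were at least 2-fold lower, and 1 with the filter at the 75th percentile (8 genes left, Egln3 not among them) or with 50 added to every signal (Egln3 at -0.73). At 3-fold there were 0, and at 1.5-fold 3 were lower, Hif1a being added, and 2 higher, Arnt and Vhl. For all genes the 1.5-fold shares were 4.58% lower and 12.3% higher. Probe sets past 2-fold and lower numbered 5, but 1 with the filter at the 75th percentile, 1 with 50 added, 9 at 1.5-fold and 0 at 3-fold. They also numbered 6 after lowess centring and 4 with the floor at the 50th percentile. With no filter they were 7 of 28, and without s or x probe sets 4 of 16. Higher ones numbered 0, but 1 with no filter and 2 at 1.5-fold. HIF targets at least 2-fold lower numbered 1, but 0 with 50 added or by the median over probe sets, 4 at 1.5-fold and 0 at 3-fold. Those at least 2-fold higher numbered 1, but 2 after quantile normalization, lowess centring or no filter, 0 with the filter at the 75th percentile, 50 added or the median over probe sets, 3 at 1.5-fold and 0 at 3-fold. The added 50 pulls dim ratios toward 0 by construction. Otherwise the cause was not tested. The median of the 10 genes ran from -0.25 to -0.03. Dim probe sets limit Egln3, Hif1an and the smaller Hif1a and Epas1 probe sets.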
